A study of Mus musculus with 8 samples.

Results

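The genes of 7 secreted matrix and coagulation proteins, out of 57010 genes in the files, were followed through the kidney after ischemia-reperfusion injury (IRI): *Thbs1*, *Fn1*, *Vcan*, *F13a1*, *F10*, *Tgfbi* and *Emilin2*. They were chosen by name, and the group was selected on measured values, because *Thbs1* and *Fn1* were higher after injury and lower with entospletinib in these same cells. The comparisons of vehicle with control and of entospletinib with vehicle are therefore a description of how far each gene follows that pattern. Kidneys came from C57BL/6 mice with no transgene, and all injured mice had IRI of the left kidney. The 7 conditions were control (mice whose kidneys had been left untouched), vehicle (DMSO) at days 1, 7 and 14 after IRI, and entospletinib, an inhibitor of the kinase SYK given from before the injury onwards, at the same days. Cells of 3 mice were pooled for each condition, which left no biological replicate and no test between conditions was possible. The 8 sublibraries into which the cells were split measure technical error only, and every SD below is over these 8. Live leukocytes had been enriched by flow sorting on a viability dye and scatter, so the values describe a sorted suspension and not whole kidney.

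Thrombospondin 1 (*Thbs1*) is a matricellular protein that binds CD36 and CD47 and can activate latent TGF-beta. Fibronectin (*Fn1*) is the adhesive glycoprotein of provisional matrix and is bound by integrins, and versican (*Vcan*) is a large chondroitin sulfate proteoglycan that binds hyaluronan. The A subunit of factor XIII (*F13a1*) is a transglutaminase that crosslinks fibrin and fibronectin, and factor X (*F10*) is the protease that activates prothrombin. TGF-beta-induced protein (*Tgfbi*) links collagens to integrins, and *Emilin2* encodes an elastin microfibril interface protein. Blood monocytes are known to express several of these genes, and fibronectin and fibrin make up the early scaffold on which tissue is repaired.

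In all, 79389 cells passed the limits on quality, 5806 to 20571 per condition, and 388617036 counts had been deposited for 120281 barcodes. The median depth was 2432 to 2930 counts per cell in the control and vehicle pools and 2071.5, 2742 and 960 counts with entospletinib at days 1, 7 and 14. Of 105340 combinations of barcode wells, 13712 occurred in more than 1 sublibrary and were kept apart by the sublibrary index. Cells were gated into classes with lists of marker genes that held none of the 7 genes, a cell entering the class of its highest score if that score was at least 1.5 times the next. This gave 3806 monocyte-like, 18409 macrophage-like and 12717 neutrophil-like cells, and 27.4% of the cells stayed ungated. A gate of this kind is a range of a score, and 1028 cells with a highest score for monocytes lay just outside the limit (1.2 to 1.5 times the next) and 907 just inside it (1.5 to 1.8 times). Although none of the 7 genes was a marker, 5 of the 10 genes that led the monocyte-like cells by fold over the other classes were members of the group, namely *Vcan*, *F13a1*, *Fn1*, *F10* and *Thbs1*. That ranking pooled all conditions, and the day 1 vehicle pool held 2483 of the 3806 monocyte-like cells.

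In the GRCm38 assembly (mm10), all 7 are protein-coding genes. *Thbs1* spans chr2:118111876-118127133 on the plus strand, *Fn1* chr1:71585520-71653200 on the minus strand and *Emilin2* chr17:71252172-71311978 on the minus strand. Chromosome 13 holds 3 of them, *Vcan* at chr13:89655312-89742509 and *F13a1* at chr13:36867178-37050244 on the minus strand and *Tgfbi* at chr13:56609523-56639562 on the plus strand, and *F10* lies at chr8:13037308-13056676 on the plus strand. Annotated genes on the opposite strand overlap *Thbs1* (Gm29233), *Fn1* (Apol7d), *Vcan* (Gm16318 and Gm4117), *F13a1* (Gm49144 and Gm30489) and *Emilin2* (Gm26561), and whether the authors' counting used strand is not given in the sources used here.

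Upstream sequences from RefSeq (GRCm38.p6) were matched for 5 of the 7 genes and are shown for the 4 with a searched motif in the 120 bases before a start, so that the matches can be seen in place. Each is the 120 bases before an annotated transcript start, written 5′ to 3′ on the strand of the gene, with a searched motif in capitals. The windows are chr13:37050245-37050364 (minus strand) for *F13a1*, chr8:13037188-13037307 (plus strand) for *F10*, chr17:71311012-71311131 (minus strand) for *Emilin2*, which like *F13a1* has 2 annotated starts in that table, and chr13:89742513-89742632 (minus strand) for *Vcan*.
F13a1: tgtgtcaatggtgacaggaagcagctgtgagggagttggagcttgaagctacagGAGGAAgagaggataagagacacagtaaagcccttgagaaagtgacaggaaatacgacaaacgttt
F10: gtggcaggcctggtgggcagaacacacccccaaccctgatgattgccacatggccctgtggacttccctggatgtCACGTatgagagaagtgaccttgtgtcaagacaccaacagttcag
Emilin2: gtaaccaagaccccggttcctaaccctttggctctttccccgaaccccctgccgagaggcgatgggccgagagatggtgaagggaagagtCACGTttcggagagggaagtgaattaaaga
Vcan: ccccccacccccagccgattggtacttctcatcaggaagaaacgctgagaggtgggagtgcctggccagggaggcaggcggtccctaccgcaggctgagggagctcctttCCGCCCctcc

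The search covered 8 motifs, read on both strands in the 250 bases before each start, counting the base next to the start as -1. The core bound by PU.1, a transcription factor of myeloid cells (GAGGAA), began at -66 of *F13a1* and was found in no other matched member, against 23.3% of all 32851 promoters in the table. The core of the hypoxia response element (ACGTG, here as CACGT) began at -45 of *F10* and -30 of *Emilin2*, against 16.6% of all promoters. The GC box (GGGCGG or CCGCCC) began at -219 and -10 of *Vcan*, -234 of *Emilin2* and -124 of *Tgfbi*, against 32.7% of all promoters. The AP-1 site (TGANTCA, in 6.75% of all promoters), the C/EBP site (TTGCNNAA, 9.56%), the cyclic AMP response element (TGACGTCA, 1.55%), the SMAD box (GTCTAGAC, 0.167%) and the TATA box (TATAAA, 12.4%) had no match in these windows. The matches are letters only, and no motif was shared by all matched members.

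Levels are given as counts per 1000000 counts of the class (CPM), without scaling by gene length, so they are compared within a gene only. In monocyte-like cells, *Thbs1* stood at 598 CPM in control kidneys, at 5213, 2148 and 463 CPM after vehicle at days 1, 7 and 14, and at 2425, 531 and 582 CPM under entospletinib at the same days. The day 1 vehicle value had an exact 95% Poisson interval of 5174 to 5251 CPM and an SD of 427 CPM, and the control value an interval of 531 to 670 CPM and an SD of 519 CPM from 122 cells. The gene was thus highest in the day 1 vehicle pool, still high at day 7 only with vehicle, and close to the control in both day 14 pools.

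*Fn1* in monocyte-like cells was 679 CPM in control kidneys, 2365, 2046 and 708 CPM after vehicle, and 1253, 1121 and 637 CPM under entospletinib at days 1, 7 and 14. Unlike *Thbs1*, it was nearly as high at day 7 as at day 1 in the vehicle pools (SD 235 CPM at day 1 and 583 CPM at day 7). *Vcan* was 330 CPM in control kidneys, 1866, 742 and 223 CPM after vehicle, and 1262, 432 and 185 CPM under entospletinib. Both day 1 pools stood above every other pool for *Vcan*, with SDs of 119 CPM (vehicle) and 207 CPM (entospletinib).

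The coagulation genes behaved differently from each other in these cells. *F13a1* was 774 CPM in control kidneys, 1186, 742 and 562 CPM after vehicle, and 980, 1176 and 411 CPM under entospletinib. Its whole range was under 3-fold, and the day 7 entospletinib pool equalled the day 1 vehicle pool within the spread of the sublibraries (SD 322 and 96.0 CPM). *F10* was 85.1 CPM in control kidneys, 318, 212 and 65.9 CPM after vehicle, and 337, 112 and 110 CPM under entospletinib, so that the day 1 pools were high with and without the inhibitor.

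*Tgfbi* in monocyte-like cells was 363 CPM in control kidneys, 1564, 580 and 416 CPM after vehicle, and 1221, 450 and 637 CPM under entospletinib. *Emilin2* was 423 CPM in control kidneys, 918, 715 and 432 CPM after vehicle, and 731, 592 and 315 CPM under entospletinib. For both genes the day 1 vehicle pool was highest and the day 1 entospletinib pool next. Values at day 14 with entospletinib rest on 92 monocyte-like cells with 16 to 93 counts of each gene, and their SDs ran from 83.0 to 539 CPM, for *Vcan* above the value itself (224 CPM).

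**Figure D1:**
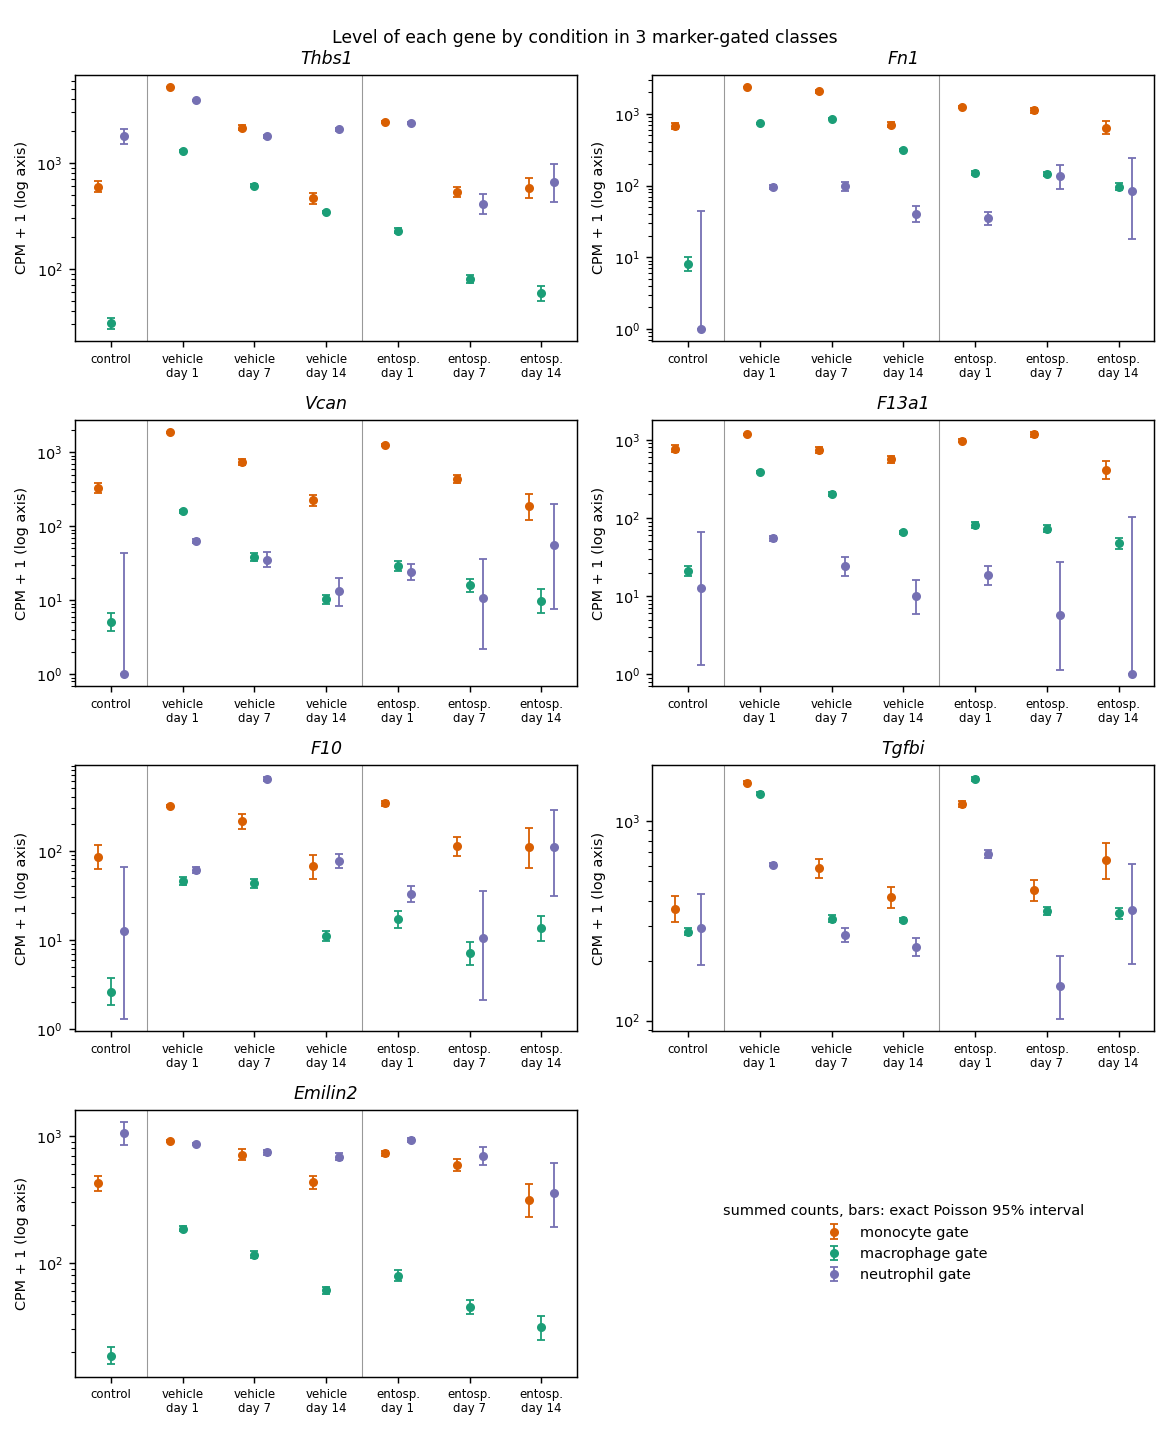
Level of each gene in monocyte-like, macrophage-like and neutrophil-like cells, in CPM plus 1 on a log axis, for the 7 conditions, with exact 95% Poisson intervals that cover counting error only. *Thbs1* in monocyte-like cells reaches 5213 CPM at day 1 with vehicle, while the control macrophage-like cells stand at 29.8 CPM.

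In macrophage-like cells the control levels were far lower for 6 of the 7 genes. *Thbs1* was 29.8 CPM in control kidneys, 1304, 611 and 342 CPM after vehicle at days 1, 7 and 14, and 229, 79.3 and 57.7 CPM under entospletinib. *Fn1* was 7.10 CPM in control kidneys, 738, 855 and 311 CPM after vehicle, and 149, 144 and 95.6 CPM under entospletinib. The 3 vehicle pools stood above every other pool for both genes.

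*Vcan* in macrophage-like cells was 4.11 CPM in control kidneys, 158, 37.2 and 9.23 CPM after vehicle, and 28.0, 14.9 and 8.82 CPM under entospletinib. *F13a1* was 20.1 CPM in control kidneys, 391, 203 and 64.3 CPM after vehicle, and 80.1, 71.8 and 46.3 CPM under entospletinib. *Emilin2* was 17.7 CPM in control kidneys, 186, 116 and 59.8 CPM after vehicle, and 78.7, 44.3 and 30.1 CPM under entospletinib. These 3 genes ran in the same order in the vehicle pools, with day 1 highest and day 14 lowest.

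*F10* in macrophage-like cells was 1.62 CPM in the control (13 counts), 44.8, 42.4 and 10.1 CPM after vehicle, and 16, 6.10 and 12.5 CPM under entospletinib. *Tgfbi* was the exception among the 7, at 279 CPM in control kidneys, 1371, 324 and 318 CPM after vehicle, and 1633, 354 and 345 CPM under entospletinib. Only the day 1 pools were high for *Tgfbi*, and the entospletinib value was the higher of the pair (SD 92.7 CPM, against 89.9 CPM with vehicle).

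Neutrophil-like cells held 2 of the genes at levels close to or above those of monocyte-like cells, which goes against the name monocyte genes. In the control, *Thbs1* was at 1782 against 598 CPM in monocyte-like cells, and *Emilin2* at 1048 against 423 CPM. With vehicle at day 14, *Thbs1* was at 2072 against 463 CPM. *Thbs1* in neutrophil-like cells was 1782 CPM in the control (63 cells, SD 880 CPM), 3914, 1779 and 2072 CPM after vehicle, and 2377, 411 and 662 CPM under entospletinib. *Emilin2* was 1048 CPM in control kidneys, 867, 742 and 689 CPM after vehicle, and 936, 702 and 359 CPM under entospletinib, the last from 13 counts in 39 cells. *Thbs1* was highest with vehicle at day 1 and lowest with entospletinib at day 7, whereas *Emilin2* stayed between 689 and 1048 CPM in every pool but the last.

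*F10* was highest in a single pool among neutrophil-like cells. It was 11.6 CPM in the control (1 count), 59.7, 634 and 76.1 CPM after vehicle at days 1, 7 and 14, and 31.8, 9.55 and 110 CPM under entospletinib, where days 7 and 14 had 2 and 4 counts. The day 7 vehicle value rests on 1331 counts in 1335 cells and had an SD of 116 CPM, and it stayed at 659 CPM when each cell was placed by likelihood and at 627 CPM with a stricter gate. *Fn1*, *Vcan* and *F13a1* did not exceed 134 CPM in any neutrophil-like pool and had 0, 0 and 1 counts in the control, where 3 counts would be 34.9 CPM.

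Ratios between pools were taken relative to the median ratio of all genes that averaged 20 CPM or more in the 2 pools, which itself lay between -0.32 and 0.36 on the log2 scale in the monocyte-like and macrophage-like cells. A gene was called when it was at least 2-fold higher or lower on that scale with all 8 sublibraries on the same side. The call says nothing about mice, and the shares of all genes given beside each count are background to contrasts that the choice of the group had already used. The 3 vehicle comparisons share the control pool.

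In monocyte-like cells, vehicle was higher than control past 2-fold for 5 of the 7 genes at day 1 (4.64% of all genes tested), 4 at day 7 (1.87%) and 0 at day 14 (0.453%). The stricter gate gave fewer calls at days 1 and 7, and other settings also moved these counts (see the last section). *Thbs1* was 8.00-fold higher at day 1 (log2 ratio 3.00, SD 0.98) and 4.24-fold higher at day 7 (2.08, SD 0.86). *Vcan* was 5.18-fold higher at day 1 (2.37, SD 0.66), *Tgfbi* 3.96-fold (1.98, SD 0.70) and *F10* 3.42-fold (1.78, SD 2.69). *Fn1* was 3.20-fold higher at day 1 (1.68, SD 0.57) and 3.56-fold at day 7 (1.83, SD 0.71), a difference within the SDs whose order turns without centring (1.8 at day 1 and 1.59 at day 7). The genes that were not called at day 1 were *F13a1* (0.49, SD 0.48) and *Emilin2*, which missed the limit narrowly at 0.99 (SD 0.56).

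With entospletinib, none of the 7 genes was lower than vehicle past 2-fold in monocyte-like cells at day 1 (0.468% of all genes tested) and none was higher (0.252%). *Thbs1* came nearest with a log2 ratio of -0.94 (SD 0.27) and was lower in all 8 sublibraries, and *Fn1* followed at -0.75 (SD 0.23). *Vcan* stood at -0.40, *Tgfbi* at -0.20, *Emilin2* at -0.17, *F13a1* at -0.11 and *F10* at 0.25. The day 1 entospletinib pool differed from its vehicle pool in quality, since the limit on ribosomal protein genes removed 29.0% of its otherwise passing barcodes against 8.53%. Without that limit *Thbs1* was at -1.10, and it also passed 2-fold without sublibrary 4, with cells given equal weight and without centring.

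At day 7, 2 of the 7 genes were lower with entospletinib in monocyte-like cells (1.56% of all genes tested). *Thbs1* was 5.11-fold lower (log2 ratio -2.35, SD 0.92) and *Fn1* 2.30-fold lower (-1.20, SD 0.69), from 132 vehicle and 170 entospletinib cells. By likelihood the monocytes of these pools were 704 and 204 cells. The *Fn1* call was lost without centring (-0.87), and both were lost with the stricter gate (*Thbs1* -1.87, *Fn1* -0.72) and with thinned cells (-1.75 and -0.34). *F10* (-1.25, SD 1.74) and *Vcan* (-1.12, SD 0.73) were past 2-fold without all sublibraries on that side, though by likelihood *Vcan* stood at -0.01, and *F13a1* was on the other side at 0.33 (SD 0.82). At day 14 none of the 7 was called lower (1.05%), with ratios from -0.58 to 0.61.

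In macrophage-like cells, vehicle was higher than control past 2-fold for 7 of 7 genes at day 1 (8.03% of all genes tested), 6 of 7 at day 7 (5.4%) and 4 of the 5 that reached 20 CPM at day 14 (3.86%). *Fn1*, *Vcan*, *F10* and *Emilin2* were under 20 CPM in the control. At days 1 and 7 they entered only through the vehicle pool where they were high, as did *Fn1* and *Emilin2* at day 14. These genes had to differ, and these counts support nothing. *Fn1* was higher by 93.0-fold at day 1 (6.54, SD 0.83), 151-fold at day 7 (7.23, SD 0.97) and 46.3-fold at day 14 (5.53, SD 0.91), over a control level of 57 counts in 2414 cells that was not above background (given below), so the size of these ratios is uncertain. *Thbs1* was 39.2-fold, 25.6-fold and 12.2-fold higher at the 3 days, over a control level that is read as background below. With cells placed by likelihood these ratios were smaller, 23.3-fold, 51.4-fold and 30.6-fold for *Fn1* and 11.1-fold, 12-fold and 10.2-fold for *Thbs1*. *Tgfbi* was 4.41-fold higher at day 1 (2.14, SD 0.12) and uncalled at day 7 (0.54, SD 0.18) and day 14 (0.27, SD 0.12). *Vcan* and *F10* were not tested at day 14, since their means fell under 20 CPM.

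With entospletinib, 6 of the 7 genes were lower than vehicle in macrophage-like cells at day 1 (1.41% of all genes tested), 6 at day 7 (3.27%) and 3 of 5 at day 14 (1.67%). Fewer were called at each day with cells placed by likelihood, and at day 7 also with the stricter gate or thinned cells (see the last section). The gate was not divided into the resident, acute-injury and chronic-disease macrophages of the paper, which reports that entospletinib changed their proportions. How far the ratios go with that mix was not tested. *F10* at days 1 and 7 and *Vcan* at day 7 were under 20 CPM with entospletinib and entered only through the vehicle pool. None was called higher, where 0.368%, 0.297% and 0.751% of all genes were at the 3 days. *Thbs1* was 5.43-fold lower at day 1 (-2.44, SD 0.59), 9.91-fold at day 7 (-3.31, SD 0.65) and 6.34-fold at day 14 (-2.66, SD 0.93). At days 1 and 14 the *Thbs1* folds divide by 229 and 57.7 CPM. Barcodes of the same pools that failed the filters held 220 and 59.4 CPM. At day 7 the 79.3 CPM stood above the 51.3 CPM of the failed barcodes, but its share of cells overlapped that of T-cell-like cells (given below). The size of these folds is therefore uncertain. *Fn1* was 4.72-fold, 7.64-fold and 3.47-fold lower at days 1, 7 and 14. *Emilin2* was 2.25-fold, 3.36-fold and 2.12-fold lower, but its day 1 call ended with cells placed by likelihood (-0.51), and its day 14 call ended both by likelihood (-0.98) and without centring (-0.99). *Vcan* was 5.39-fold and *F13a1* 4.66-fold lower at day 1, and at day 14 *F13a1* stood at -0.57 (SD 0.92) without a call. With entospletinib at day 1, *Vcan* (28.0 CPM), *F13a1* (80.1 CPM) and *Emilin2* (78.7 CPM) were not above that pool's failed barcodes. Those held 65.9, 80.2 and 105.5 CPM. Failed barcodes are not free RNA alone, since in this pool the ribosomal limit removed 29.0% of otherwise passing barcodes. They therefore do not set a background level, and the size of the day 1 folds of these genes is uncertain.

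*Tgfbi* was again the gene that did not follow in macrophage-like cells. Its entospletinib over vehicle ratio was 0.32 at day 1 (SD 0.09, higher in 8 of 8 sublibraries), -0.24 at day 7 (SD 0.18) and 0.02 at day 14 (SD 0.15). Its value at day 7 turned to 0.13 without centring. Its value at day 1 was 0.25 without centring, and lay between 0.34 and 0.46 under the other ways of gating.

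**Figure D2:**
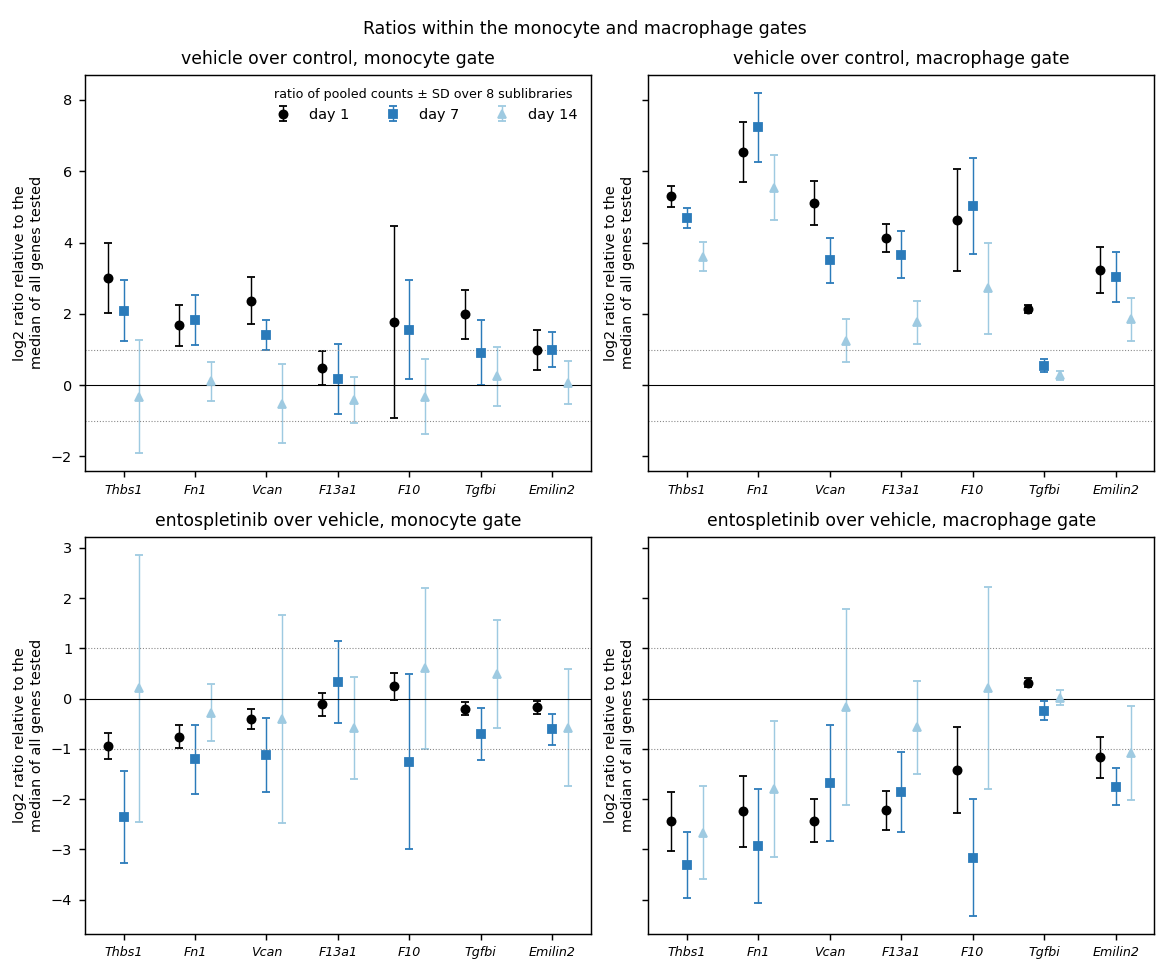
Log2 ratios of vehicle over control (upper panels) and entospletinib over vehicle (lower panels) in monocyte-like (left) and macrophage-like (right) cells, relative to the median of all genes tested, with bars for the SD over 8 sublibraries and dotted lines at 2-fold. In macrophage-like cells *Tgfbi* lies near 0 with entospletinib, while *Thbs1* lies between -2.44 and -3.31.

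The levels above move with where the gate between monocyte-like and macrophage-like cells is drawn. Each cell was also placed in its likeliest class with profiles of 28473 genes. These left out the 7, mitochondrial and ribosomal protein genes, and genes in under 5 cells. The profiles were summed from the gated cells themselves, so the 93.6% of gated cells that stayed in their class is no independent check. Of the 3806 cells behind the monocyte profile, 2483 were from the day 1 vehicle pool. By this placing 688 macrophage-like cells moved to the monocytes and 63 went the other way. *Thbs1* in macrophages of the day 1 vehicle pool was then 389 CPM in place of 1304 CPM, *Fn1* 231 CPM in place of 738 CPM and *Vcan* 36.5 CPM in place of 158 CPM. The entospletinib over vehicle ratio of *Thbs1* at day 1 was then -1.63 in place of -2.44, and that of *Fn1* -1.68 in place of -2.24, both still past 2-fold. In monocytes of the day 7 vehicle pool, *Fn1* was 3822 CPM by likelihood against 2046 CPM by markers.

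Within the macrophage-like cells of the day 1 vehicle pool, the genes were seen in the same cells. Each cell was thinned to 500 counts, and cells with a *Thbs1* count (418) were set beside those without (1831). *Fn1* was detected in 41.9% of the former (exact binomial 95% interval 37.1% to 46.8%) and in 6.06% of the latter (5.01% to 7.25%). *Vcan* was detected in 18.9% against 1.53%, *F13a1* in 30.6% against 5.90%, *Emilin2* in 21.8% against 3.93% and *F10* in 5.26% against 0.819%. *Tgfbi* differed less, with 50.2% against 38.8%.

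The same *Thbs1*-positive macrophage-like cells more often had a count of a monocyte marker (19.9% against 8.25%) and less often one of a macrophage marker (76.3% against 88.9%). A neutrophil marker was seen in 16% against 13.2%. No doublet caller was run, and the part of doublets in these shares was not tested. At day 14 with vehicle, *Thbs1*-positive macrophage-like cells (530) still had *Fn1* more often than the others (22.3% against 4.22%), while monocyte markers were at 15.7% against 18.7% and macrophage markers at 94.2% against 92.3%.

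Neutrophil-like cells of the day 1 vehicle pool held *Fn1* and *Vcan* at background only (given with the thinned shares), so these 2 genes say nothing there about co-detection. *Fn1* was detected in 1.98% of 4185 cells with a *Thbs1* count and in 2.27% of 3474 cells without one. *Emilin2* was detected in 34.1% and 28.8%, *Tgfbi* in 22.8% and 23.7%, and *Vcan* in 2.39% and 1.73%. In monocyte-like cells *Vcan* was detected in 53.2% of *Thbs1*-positive and 31.1% of other cells, *Fn1* in 47.8% and 36.1%, and *Tgfbi* in 46.0% and 45.2%. These shares come from cells of 1 pool, and the intervals cover counting error only.

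**Figure D3:**
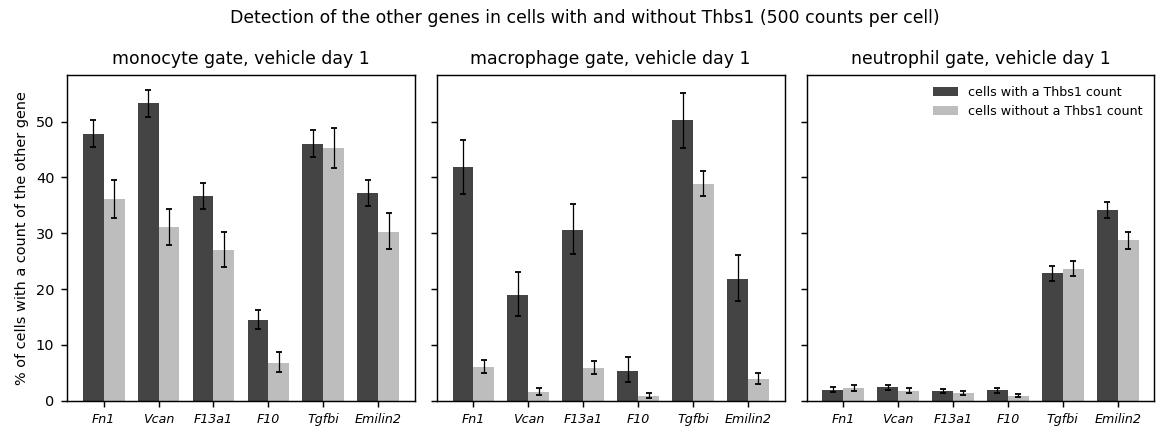
Percent of cells with a count of each other gene among cells with (dark) and without (light) a *Thbs1* count, in monocyte-like, macrophage-like and neutrophil-like cells of the day 1 vehicle pool at 500 counts per cell, with exact binomial 95% intervals. In macrophage-like cells *Fn1* stands at 41.9% against 6.06%, and in neutrophil-like cells at 1.98% against 2.27%.

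Free RNA gives every class some counts of an abundant gene, so the share of cells with a count at 500 counts per cell was set beside classes that should lack it. With vehicle at day 1, *Thbs1* was found in 68.2% of monocyte-like cells (median 5221 counts before thinning), 54.6% of neutrophil-like cells (1632 counts) and 18.6% of macrophage-like cells (4139 counts). In the same pool it was found in 7.91% of T-cell-like cells (2856 counts), 6.07% of B-cell-like and 5.66% of proximal-tubule-like cells. In the control, the 1.66% of macrophage-like cells with *Thbs1* (1.19% to 2.25%) overlapped the 1.17% of endothelial-like and 1.24% of proximal-tubule-like cells, so that level is read as background. The 2.11% of macrophage-like cells with entospletinib at day 7 likewise overlapped the 1.45% of T-cell-like cells (0.176% to 5.14%). However, the 79.3 CPM of *Thbs1* in those macrophage-like cells lay above the 51.3 CPM (48.3 to 54.3 CPM) of that pool's failed barcodes, so these comparisons differ. At day 14 with entospletinib, *Thbs1* was in 2.13% of macrophage-like cells (1.58% to 2.82%), against 2.07% of endothelial-like and 2.21% of proximal-tubule-like cells, and its 57.7 CPM lay beside the 59.4 CPM of the barcodes of that pool that failed the filters. Without thinning, *Thbs1* was in 88.3%, 68.1%, 38.1% and 20.9% of the monocyte-like, neutrophil-like, macrophage-like and T-cell-like cells of the day 1 vehicle pool.

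*Fn1* with vehicle at day 1 had a count in 44.1% of the monocyte gate and 12.7% of the macrophage gate, against 0.719% of T-cell-like, 1.40% of B-cell-like and 5.03% of proximal-tubule-like cells. The 2.12% of neutrophil-like cells with *Fn1* lay within the range of those 3 classes and is read as background. In the control, *Fn1* was in 0.331% of macrophage-like cells (0.143% to 0.652%), against 0.538% of endothelial-like and 0.337% of B-cell-like cells, so that level is read as background. Its 7.10 CPM also lay below the 8.92 CPM of the control's failed barcodes, which can hold cells as well as free RNA. *Vcan* (2.09% of neutrophil-like, 1.44% of T-cell-like cells) and *F13a1* (1.58% of neutrophil-like, 1.40% of B-cell-like cells) in neutrophil-like cells lay within the 95% intervals of those classes as well (0.175% to 5.10% and 0.290% to 4.04%). *F10* in neutrophil-like cells stood at 14.1% (12.2% to 16%) with vehicle at day 7, against 0.943% of T-cell-like and 0.490% of endothelial-like cells, and 0 of 111 B-cell-like cells (up to 3.27%). For *F10* the neutrophil-like share was 1.42% with vehicle at day 1, 2.16% with vehicle at day 14 and 0.909% with entospletinib at day 7 (0.0230% to 4.96%).

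At day 7 with vehicle, *F10* was found in 14.3% of neutrophil-like cells with a *Thbs1* count and in 13.9% of those without. *Emilin2* was found in 25.3% and 30.3% of these cells. The *F10* counts at day 7 were therefore spread over neutrophil-like cells irrespective of *Thbs1*.

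**Figure D4:**
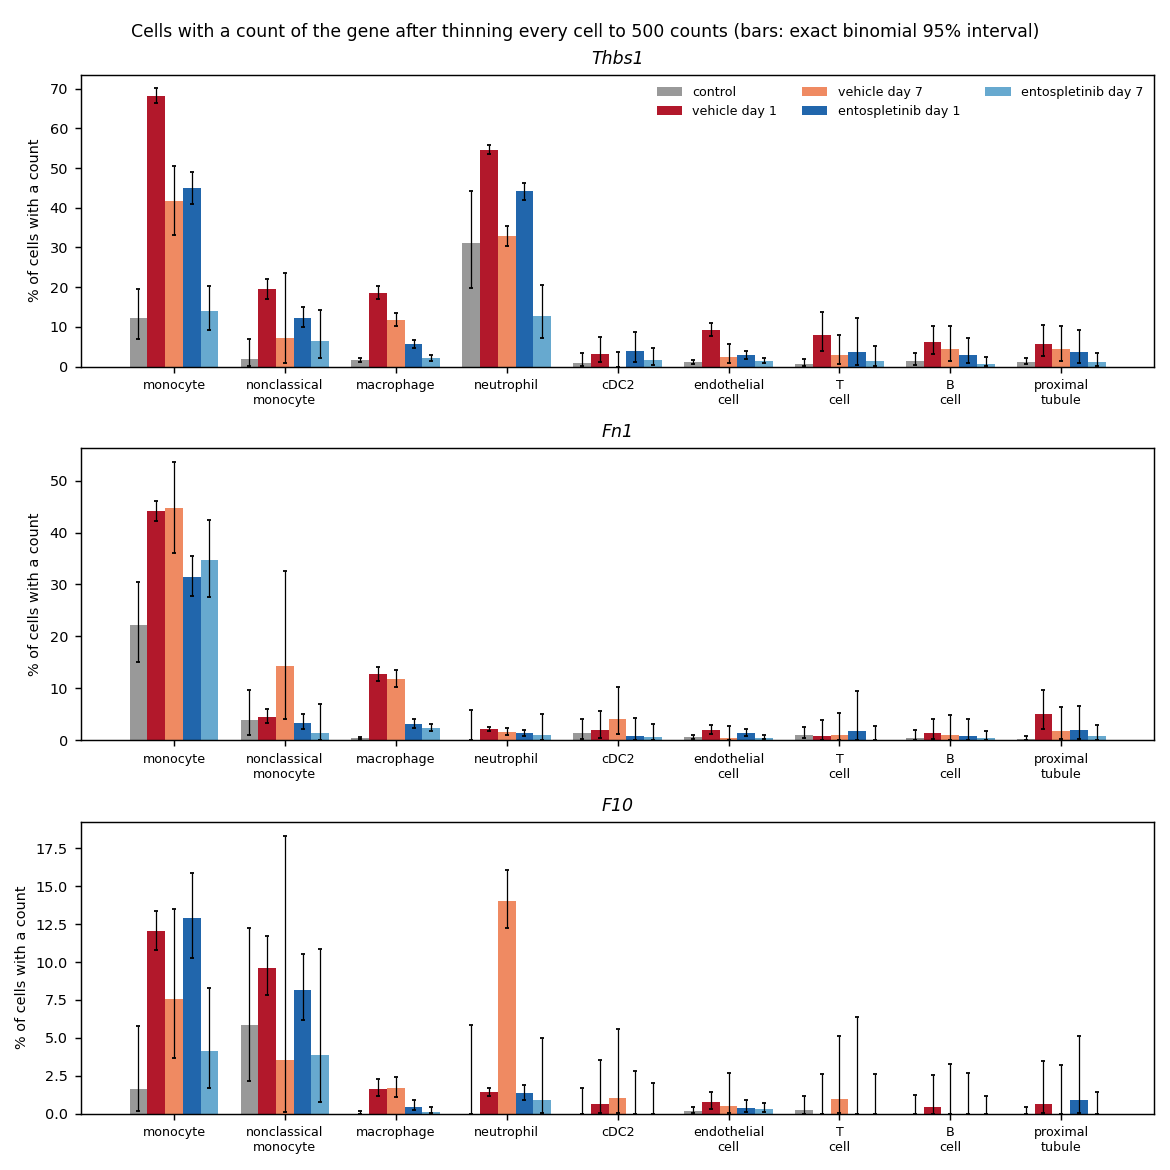
Percent of cells with a count of *Thbs1*, *Fn1* or *F10* after each cell was thinned to 500 counts, by class, for the control and the day 1 and day 7 pools, with exact binomial 95% intervals. *F10* reaches 14.1% in neutrophil-like cells of the day 7 vehicle pool and stays at 1.42% in those of the day 1 vehicle pool.

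The holders of each gene's counts shifted with time. Of all *Thbs1* counts in the day 1 vehicle pool, 35.1% were in monocyte-like, 26.9% in neutrophil-like, 6.53% in macrophage-like and 27.8% in ungated cells. At day 14 with vehicle, 42.9% were in macrophage-like, 20.5% in neutrophil-like and 1.86% in monocyte-like cells. *Vcan* was the most monocytic at day 1, with 62.0% of its counts in monocyte-like cells, which held 19.1% of all counts of the pool. *F13a1* (49.1%), *Fn1* (46.2%) and *F10* (44.9%) followed, and *Emilin2* (30.3%) and *Tgfbi* (30.0%) were lowest. By likelihood these monocyte shares at day 1 were 93.8% for *Vcan*, 92.3% for *Fn1*, 90.2% for *F13a1*, 74.4% for *F10* and 60.8% for *Tgfbi*.

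*Emilin2* counts were split almost equally between monocyte-like and neutrophil-like cells (29.3%) with vehicle at day 1. At day 7 with vehicle, neutrophil-like cells held 32.8% of them and monocyte-like cells 7.57%. By likelihood the *Emilin2* shares were 52.7% (monocyte) and 29.2% (neutrophil) at day 1, and 36.8% and 36.3% at day 7. *F10* counts lay in neutrophil-like cells for 48.9% with vehicle at day 7, a class with 10.3% of that pool's counts. *Tgfbi* counts lay in macrophage-like cells for 41.0% in the control and 54.0% with vehicle at day 14, but for 19.6% with vehicle at day 1, where monocyte-like cells held more. *Vcan* at day 14 with vehicle had 12.6% of its counts in stroma-like cells, from 58 cells. When each cell was placed by likelihood, which leaves none ungated, the monocyte share of *Thbs1* at day 1 was 65.7% and at day 7 with vehicle 60.1% in place of 6.34%, so the day 7 split between monocytes and macrophages rests on the gate. At day 14 with vehicle that share was 11.2% in place of 1.86%.

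**Figure D5:**
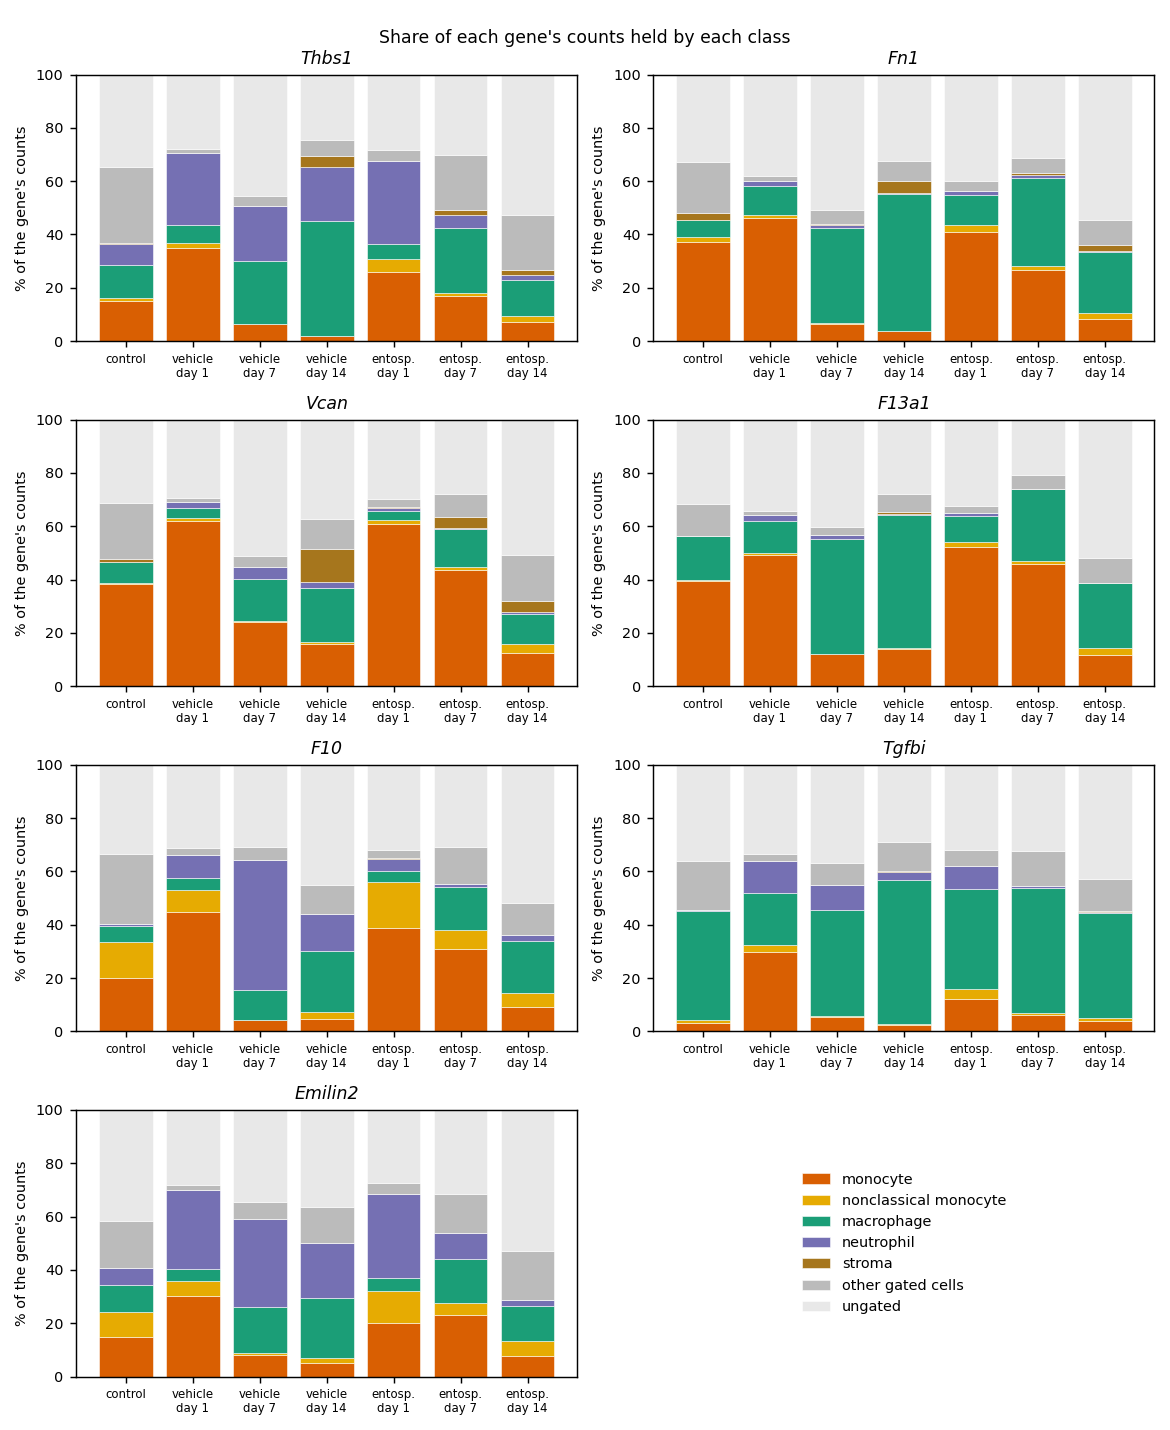
Percent of each gene's counts held by each class in the 7 conditions, stacked to 100%, with cells that entered no gate in light grey. The monocyte part of *Vcan* is 62.0% at day 1 with vehicle, and the neutrophil part of *F10* is 48.9% at day 7 with vehicle.

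Over all cells, the level of a gene can differ because the classes differ in number or because the level within a class differs, and the pools were recombined to separate the arithmetic of the 2 terms, with ungated cells counted as a class. *Thbs1* over all cells was 2836 CPM after vehicle and 816 CPM under entospletinib at day 1. It would be 1235 CPM with the entospletinib levels in the vehicle class make-up, and 2093 CPM with the vehicle levels in the entospletinib make-up. At day 7, *Thbs1* was 900 CPM after vehicle and 82.8 CPM under entospletinib, and the same recombinations gave 123 and 636 CPM.

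*Fn1* at day 7 was 835 CPM after vehicle and 110 CPM under entospletinib, with 140 CPM for the entospletinib levels in the vehicle make-up and 689 CPM for the reverse. *Emilin2* at day 7 was 233 and 68.0 CPM, with recombined values of 138 and 147 CPM. *Tgfbi* at day 1 was 997 and 872 CPM, with recombined values of 931 and 893 CPM. These values depend on the gates, ungated cells held 27.8% of the *Thbs1* counts with vehicle at day 1, and no recombination was made with cells placed by likelihood.

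Among 5722 genes with at least 20 CPM on average over the 21 combinations of condition and class (monocyte-like, macrophage-like and neutrophil-like), the profiles most like *Thbs1* on a log2(CPM + 10) scale were those of *Hif1a* (Pearson r = 0.92), the long noncoding RNA *Morrbid* (0.90), the glycolytic enzyme gene *Pkm* (0.90), *Gpr35* (0.90) and the glucose transporter gene *Slc2a1* (0.89). *Emilin2* came 7th (0.88), while *Fn1* came only 1263rd (0.26). The profiles most like *Fn1* were those of *Niban2* (0.93), *Jarid2* (0.91), *Atp2b4* (0.90), *Rnf217* (0.90) and *Gab1* (0.89), with *F13a1* 8th (0.88) and *Vcan* 18th (0.85). The 21 points share pools and depth and are a description without a test. By this measure at least 2 patterns appeared, *Thbs1* with *Emilin2* in monocyte-like and neutrophil-like cells, and *Fn1* with *F13a1* and *Vcan*, low in neutrophil-like cells. *F10* (0.68 with *Thbs1*, 0.55 with *Fn1*) and *Tgfbi* (0.35 and 0.47) were less close to either. The measure spans the classes, so differences between classes enter it, and no correlation within a class was computed. Within monocyte-like cells *Thbs1* and *Fn1* were both highest with vehicle at day 1. In macrophage-like cells both were higher in every vehicle pool than in any other pool.

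*Hif1a*, which encodes the oxygen-regulated subunit of hypoxia-inducible factor, stood in monocyte-like cells at 178 CPM in control kidneys, 639, 349 and 196 CPM after vehicle, and 358, 208 and 226 CPM under entospletinib at days 1, 7 and 14. In neutrophil-like cells *Hif1a* was 326 CPM in control kidneys and 471 CPM in the day 1 vehicle pool. *Thbs1* and *Hif1a* had the same pool highest in each of the 3 classes. *Hif1a* was picked for its likeness to *Thbs1* over these same values, so the shared peak adds no support.

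Related genes were counted from 5 lists of 107 genes in all. Of 27 other genes of coagulation and fibrinolysis, 5 reached 20 CPM in macrophage-like cells at day 1. With entospletinib, 1 of 5 was lower at day 1 (1.41% of all genes tested), 2 of 4 at day 7 (3.27%) and 2 of 5 at day 14 (1.67%). *Tgm2*, a transglutaminase like *F13a1* that crosslinks matrix, was among them at each day, with 15.0 CPM in control kidneys, 179, 142 and 94.8 CPM after vehicle, and 73.0, 41.4 and 41.9 CPM under entospletinib. Its log2 ratios of entospletinib over vehicle were -1.23 (SD 0.43), -2.14 (SD 0.59) and -1.27 (SD 0.67). *Plaur*, the receptor of urokinase, was at -0.70, -1.96 and -0.86, and *Plau*, which encodes urokinase itself, at -0.56, 0.08 and -1.03. The *Plaur* call at day 7 and the *Plau* call at day 14 were lost when genes needed a mean of 50 CPM. That left *Tgm2* as 1 of 3 at both days. In monocyte-like cells *Tgm2* was also lower with entospletinib at day 7, at 39.8 against 362 CPM (-3.52, SD 1.49), but not called at day 1 (-0.60) or day 14 (0.66, SD 2.68).

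Of 15 receptors that bind the members, 14 reached 20 CPM in macrophage-like cells, and 6 were higher with vehicle than control at day 1, where 8.03% of all genes were (*Cd44*, *Lrp1* and, named after their values were seen, *Cd36*, *Itga5*, *Itgam* and *Sdc4*). At day 7, 3 were higher (5.4%), and at day 14 only *Itgam* was (3.86%), while *Itga9* was called lower at day 7 (1.87% of all genes) and *Cd36* at day 14 (1.55%). *Cd44*, a receptor of hyaluronan, was the only one lower with entospletinib past 2-fold, at each of the 3 days (1.41%, 3.27% and 1.67% of all genes). Its day 14 call was lost without centring and when genes needed a mean of 50 CPM. It was 230 CPM in control kidneys, 776, 695 and 350 CPM after vehicle, and 332, 267 and 185 CPM under entospletinib, with ratios of -1.16 (SD 0.18), -1.74 (SD 0.45) and -1.02 (SD 0.33). *Lrp1*, an endocytic receptor that clears thrombospondin, was lower in all 8 sublibraries at each day without passing 2-fold (-0.82, -0.90 and -0.79). The *Cd44* ratios in monocyte-like cells were smaller, -0.65, -0.66 and -0.54.

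Of 29 other matrix glycoproteins and proteoglycans, 3 reached 20 CPM in macrophage-like cells at day 1, and *Spp1*, *Ecm1* and *Srgn* were all higher with vehicle than control (8.03% of all genes tested), *Ecm1* having passed only through the vehicle pool. At day 7, 1 of 2 was higher (5.4%) and at day 14, 0 of 2 (3.86%). *Spp1*, which encodes osteopontin, was 129 CPM in control kidneys, 735, 282 and 195 CPM after vehicle, and 422, 203 and 296 CPM under entospletinib, and none of its entospletinib over vehicle ratios passed 2-fold in 8 sublibraries (-0.73, -0.84 and 0.51). *Ecm1* was lower with entospletinib at day 1 (26.6 against 98.6 CPM, -1.82, SD 0.48), and *Igfbp7*, named after its value was seen, was called higher at day 14 (0.751% of all genes). *Igfbp7* was no longer tested when genes needed a mean of 50 CPM. The 6 endothelial markers summed in that gate to 88.4 CPM after vehicle and 132 CPM under entospletinib at day 14. Among 19 collagens and laminins, 4, 2 and 3 could be tested at the 3 days, and none was lower or higher past 2-fold with entospletinib. *Col14a1* was 202 CPM in control kidneys, 294, 83.9 and 125 CPM after vehicle, and 391, 184 and 139 CPM under entospletinib. So few were measured that the background shares (1.41%, 3.27% and 1.67% of all genes lower) would give none.

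Of 17 genes of TGF-beta supply and signalling, 9 or 10 were tested in macrophage-like cells, and none passed 2-fold with entospletinib at any day, a count that the background shares (1.41%, 3.27% and 1.67% lower) would also give. For vehicle over control, 1 was called higher at each day (8.03%, 5.4% and 3.86% of all genes). *Tgfbr1* was called lower each time (6.79%, 1.87% and 1.55%). None was called higher when genes needed a mean of 50 CPM. *Tgfbr1*, which encodes the type I receptor, was 2951 CPM in control kidneys, 1362, 765 and 987 CPM after vehicle, and 1638, 1903 and 1569 CPM under entospletinib. Its ratios of 0.33, 0.95 and 0.57 were higher in 8 of 8 sublibraries at each day. *Skil*, a repressor of SMAD proteins, stood at -0.13, -0.38 and -0.70.

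Markers of other cells were measured beside these results. The 6 monocyte markers summed in macrophage-like cells to 184 CPM in control kidneys, 314, 394 and 463 CPM after vehicle, and 201, 456 and 239 CPM under entospletinib, lower with entospletinib at days 1 and 14 and higher at day 7. The 7 neutrophil markers summed there to 176 CPM in control kidneys and 348, 246 and 353 CPM after vehicle. Under entospletinib they were at 317, 178 and 203 CPM, lower at each day. In monocyte-like cells these neutrophil markers summed to 322 CPM in control kidneys and 709, 236 and 385 CPM after vehicle. With entospletinib the sums there were 591, 329 and 295 CPM. Platelets carry thrombospondin and factor XIII, and the 8 platelet markers summed in macrophage-like cells to 2.49 CPM in control kidneys, 24.0, 9.68 and 3.78 CPM after vehicle, and 6.31, 3.23 and 8.09 CPM under entospletinib, lower with entospletinib at days 1 and 7 and higher at day 14. In monocyte-like cells they summed to 4.05 CPM in control kidneys, 16.7, 0 and 1.57 CPM after vehicle, and 4.07, 3.46 and 0 CPM under entospletinib. The part of other cells in the levels of the 7 genes was not tested.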

How the data were processed

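Kidneys of 3 mice per condition had been pooled before fixation and barcoding (Parse Evercode WT v2). The authors processed reads with the Parse Biosciences pipeline (version 1.1) on mm10, and the annotation release is not given in the sources used here. The matrix the authors deposited holds raw counts of transcripts, one table for the cells of all conditions. The 8 deposited samples each mix all conditions and were not matched to the 8 sublibraries.

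Cells were kept with over 300 genes, under 20000 counts, under 25% mitochondrial and under 1.5% ribosomal protein gene counts, after the study's limits. Each cell was scored for lists of marker genes and gated where its highest score was at least 1.5 times the next and rested on 2 or more markers, giving 16 gates with cells. The 7 genes and the lists were chosen with earlier results of these data known, and the scoring rule was set after seeing the files. Class names were rebuilt and can differ from those of the study. No doublet caller was run.

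Counts were summed per class, condition and sublibrary. CPM is counts per 1000000 of the class. Ratios are of summed counts, centred on the median of genes that averaged 20 CPM or more, with 0.5 counts added per sublibrary, in proportion to depth, for the SDs. Intervals are exact Poisson or binomial (95%) and cover counting error only, since without replicate pools no p-value could be computed. Thinning drew 500 counts per cell without replacement and left out shallower cells (0 to 708 per condition). Named genes were the 7, of each related list up to 3 genes with the largest absolute entospletinib over vehicle ratio averaged over the 3 days, among those of at least 20 CPM in the class, and the 5 profiles most like *Thbs1* and *Fn1*. The ratio step was tested on simulated data. Alternatives changed limits, gates, scaling and weighting, and left out each sublibrary. Python 3.11.15, numpy 2.4.6, pandas 2.3.3, scipy 1.17.1, R 4.3.3 and edgeR 4.0.16 (for TMM scaling factors only) were used. Some results on listed genes are not reported here.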

Additional observations from a re-analysis of the deposited data

Results flagged for a closer look

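Of 80 sets of 8 sublibrary ratios that were screened, 2 held a sublibrary far from the other 7, and chance alone flags about 1 in 20. For *Fn1* in monocyte-like cells, vehicle over control at day 1, sublibrary 4 stood at 3.01 on the log2 scale. For *F10* in the same comparison, sublibrary 5 stood at 8.90, where the control had no *F10* count, so that the value depends on the count added.

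Some ratios of entospletinib over vehicle had opposite directions in 2 classes or at 2 days with all 8 sublibraries on each side, and none of these differences was tested. *Tgfbi* at day 1 was higher in macrophage-like cells and lower in monocyte-like cells, a difference of 0.52 on the log2 scale, though with the stricter gate the monocyte-like value was 0.24. It was also higher in neutrophil-like cells than the monocyte-like value, by 0.45. *Emilin2* at day 1 was higher with entospletinib in neutrophil-like cells and lower in monocyte-like cells (a difference of 0.36) and in macrophage-like cells (1.36). Within neutrophil-like cells *Emilin2* differed between day 1 and day 14 by 1.28, where the day 14 pool had 13 counts.

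Barcodes that did not pass the limits held the 7 genes above their level in the control's own failed barcodes. *Thbs1* stood at 347 CPM with vehicle at day 1, against 35.9 CPM in the control, and *Fn1* at 208 CPM with vehicle at day 7, against 8.92 CPM. *Vcan* was at 86.0 CPM, *F13a1* at 71.5 CPM, *Tgfbi* at 200.1 CPM and *Emilin2* at 84.2 CPM with vehicle at day 1. The failed barcodes of the day 1 entospletinib pool, which lost 29.0% to the ribosomal limit, were higher for *Tgfbi* (502.8 CPM), *Emilin2* (105.5 CPM) and *F13a1* (80.2 CPM). *F10* was highest among them with vehicle at day 7, at 57.7 CPM, the pool in which it was also highest in neutrophil-like cells.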

How the results depend on the processing

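Counts of the 7 genes called (past 2-fold with all 8 sublibraries on 1 side) moved mostly with the gate. In monocyte-like cells, vehicle over control gave 3 of the 7 with the stricter gate in place of 5 at day 1, and 1 in place of 4 at day 7 both with the stricter gate and with cells thinned to 500 counts. Without centring it gave 6 at day 1, where *Emilin2* was at 1.12, and 3 at day 7, and by likelihood also 3 at day 7, where *Vcan* was at 0.40. Entospletinib over vehicle gave 1 in place of 0 at day 1 without the ribosomal limit, with thinned cells, with equal weight per cell and without centring, 0 (stricter gate or thinned cells) or 1 (no centring) in place of 2 at day 7, and 1 in place of 0 at day 14 with thinned cells. In macrophage-like cells, thinned cells gave 3 in place of 6 (day 7) and 2 in place of 4 (day 14) for vehicle over control, and 2 in place of 6 for entospletinib over vehicle at day 7, where the stricter gate gave 3. By likelihood vehicle over control gave 6, 4 and 4 in place of 7, 6 and 4 at days 1, 7 and 14, and entospletinib over vehicle 4, 4 and 2 in place of 6, 6 and 3, and no centring gave 2 in place of 3 for the latter at day 14. The cause was not tested, but the stricter gate and thinned cells keep fewer counts. Leaving out 1 sublibrary gave ranges at days 1, 7 and 14 of 5 to 6, 4 to 6 and 0 to 0 (vehicle over control) and 0 to 1, 2 to 3 and 0 to 0 (entospletinib over vehicle) in monocyte-like cells, and of 7 to 7, 5 to 6 and 4 to 4, and 6 to 6, 6 to 6 and 2 to 3, in macrophage-like cells. The single 1 at day 1 came without sublibrary 4. Of the ratios in monocyte-like and macrophage-like cells, 0 of 43 that were called and 22 of 41 that were not took another sign under some setting other than leaving out a sublibrary. TMM scaling moved 0 of 104 ratios of single genes, placing by likelihood 25 of 103, the stricter gate 30 of 97 and thinned cells 33 of 95. Removing the ribosomal limit also moved 0 of 104, although a call was gained. Counts of moved values therefore do not measure changes of call, and the size that counts as moved is not given here. Thinning to 1000 in place of 500 counts moved 115 of 147 shares of cells, and likelihood 112 of 147 shares of counts. A deeper cell more often shows a count, and likelihood leaves no cell ungated. Such moves therefore come with the settings and say little about the results. No paired analysis was possible because each condition was 1 pool.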
